A study of Mus musculus with 8 samples.

Results

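Ion channels of the potassium, sodium and calcium families were followed in RNA from mouse bone marrow stromal cells, a culture of adherent cells from marrow that can give rise to bone-forming osteoblasts. The members were all genes whose symbol begins with Kcn or Cacn, or with Scn followed by a number and an a or b, together with the mechanically gated channels Piezo1 and Piezo2. In all, 78 of the 19460 genes analysed met this rule, and another 63 annotated genes of the same names are not analysed here. One genotype, Lgr6-null in the titles of its samples, is given as Lgr6-GFP-ires-CreERT2 homozygote, that is, with a fluorescent reporter and a drug-inducible recombinase at both copies of Lgr6. The other genotype was wild-type. Both genotypes had 4 libraries, a C57BL/6 background and 10 days of the same osteogenic medium with ascorbic acid and β-glycerophosphate. The labels give no age or number of animals and leave unstated whether each library came from its own animal, so the p-values rest on a spread that may be technical.

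Potassium channels let potassium leave the cell and hold its membrane voltage negative. Voltage-gated sodium and calcium channels open when that voltage rises, and calcium that enters through them is a signal in its own right. In cells of the bone lineage, calcium channels and the stretch-gated Piezo1 are known for their part in the response to mechanical load, and pore-forming subunits are usually joined by auxiliary subunits that set their gating and surface level.

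Stromal markers were found in the libraries, with 7 of 7 genes tested, 2 of them higher and 1 lower in Lgr6-null. Libraries held 7629968 to 21135173 reads in genes, the fewest in Lgr6-null library M4, and the channel genes together took 0.115% to 0.129% of them. Lgr6 itself had 64.3, 76.2, 103 and 61.1 normalized counts in Lgr6-null (libraries M0, M2, M3, M4), against 1667, 1389.9, 996 and 1096 in wild-type (libraries M0, M1, M2, M3) (log2 fold change -4.06 with SE 0.20, limma adjusted p = 2.73e-06). All library values below keep this order. A normalized count is a read count divided by a size factor of its library, so it compares a gene between libraries but not genes of different length. Fold changes are on the log2(normalized count + 1) scale, Lgr6-null minus wild-type, which understates the change of low genes, and rose, fell or called means a Benjamini-Hochberg adjusted p under 0.05 in a limma fit across all tested genes. Markers of osteoblasts were lower in Lgr6-null for 10 of 10 genes, with a summed level of 287983 to 365690 against 1645930 to 2167270 normalized counts. Macrophage markers were higher for 12 of 18 and lower for 0 of 18, with a summed level of 434249 to 656486 against 294108 to 342201. Osteoclast markers were lower for 3 of 4 tested (1817 to 2344 against 3436 to 4497) and adipocyte markers for 2 of 3 (630 to 1871 against 2022 to 5540). Most of the adipocyte sum was Lpl (mean 1323 in Lgr6-null and 3395 in wild-type). Adipoq was not called (mean 38.1 in Lgr6-null and 38.8 in wild-type). Endothelium (1 of 3), mast cell (1 of 1) and chondrocyte (1 of 3) lists had a marker that was lower, and megakaryocyte (1 of 2) and B cell (1 of 1) lists a marker that was higher. The mast cell marker Kit and the chondrocyte marker Acan reached the level for testing in wild-type libraries alone, so they had to differ. Of 6 neuron markers, 3 were tested and 0 were called, with a summed level of 380 to 630 in Lgr6-null against 432 to 606 in wild-type libraries, and Snap25, Syt1 and Rbfox3 are not analysed here. In bulk RNA, fewer cells of a type and less RNA per cell cannot be told apart, and the part of these cell types in the channel results was not tested.

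Of the 78 channel genes, 47 were tested, those that reached a normalized count of 10 in 4 or more libraries. In Lgr6-null 11 rose and 16 fell, beside 13.0% and 12.7% of all 14294 genes tested. Together the 27 calls were 57.4% of the tested members, where 25.7% of all tested genes were called. The split depended on scaling. With libraries scaled to the same total 14 rose and 13 fell, with calls gained by Kcnk13 and Kcnab2 among others and lost by Kcnn1, Piezo1 and Kcnq1ot1, where 20.3% of all genes rose and 8.97% fell and their median was 0.09. With libraries scaled to 12 genes of mesenchymal cells 46 members were tested, of which 7 rose and 17 fell. A call was gained by Scn2a, calls were lost by Cacna1c, Cacna1d and Kcnip3, and Kcnmb1 was too low to test. There 4.97% of all genes rose and 18.1% fell and their median was -0.17, so the values of this scaling are to be read against that shift. Of the 12 scaling genes themselves, 5 rose and 1 fell in the main fit, with a median log2 fold change of 0.29. Without the shallow Lgr6-null library M4, 10 rose and 13 fell, beside 12.7% and 12.5% of all genes. The genotypes did not overlap in 26 tested members, 55.3% of them, beside 29.1% of all tested genes. At least 2-fold falls were called in 9 members and at least 2-fold rises in 7, where 4.62% and 2.70% of all genes reached them. The median log2 fold change over tested members was -0.21, beside 0.00 over all tested genes. Kcnmb1 was the 1 member that passed the filter on low values through Lgr6-null libraries alone, so it had to differ. It is also counted among the 27 calls, the 26 members without overlap and the 7 rises of at least 2-fold. Without it, 10 of 46 tested members rose and 16 fell.

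**Figure D1:**
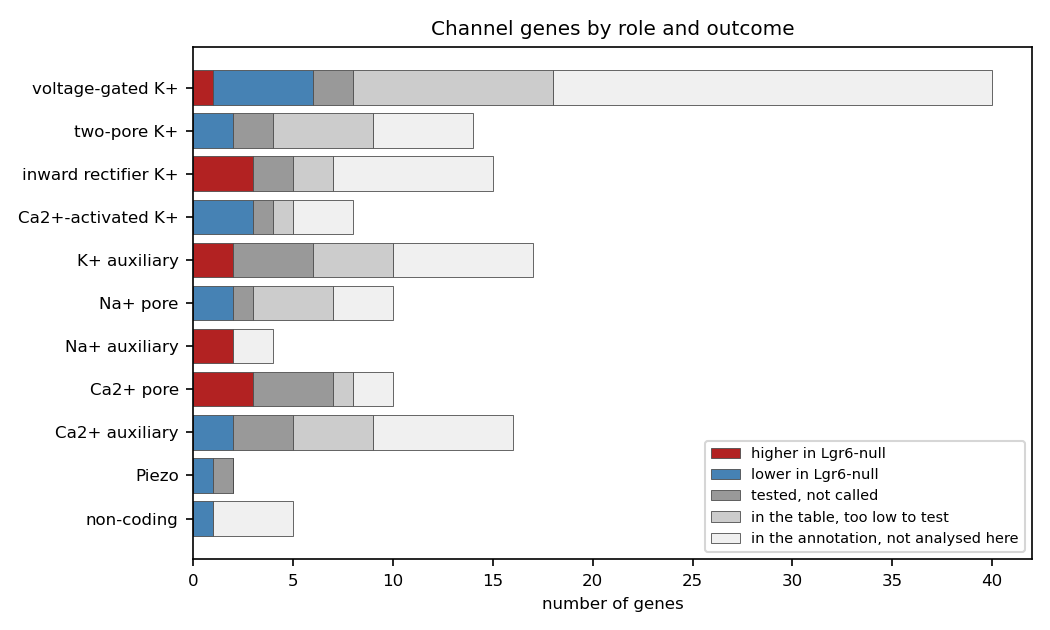
Number of channel genes (horizontal axis) by role (rows), divided by outcome in Lgr6-null against wild-type libraries. Voltage-gated potassium pores hold 5 of the 16 falls, and inward rectifiers and calcium pores hold 3 rises each and 0 falls.

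The counts differed by role. Of 21 tested potassium pore genes, 4 rose and 10 fell, and the rises were 3 inward rectifiers and Kcna3. The falls include Kcnf1, which is counted with the pores though it conducts no current by itself. Of 3 sodium pores, 0 rose and 2 fell, while both tested sodium auxiliary subunits rose. Of 7 tested calcium pores, 3 rose and 0 fell, while 0 of 5 calcium auxiliary subunits rose and 2 fell. These splits are counts of few genes and were not tested as groups.

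**Figure D2:**
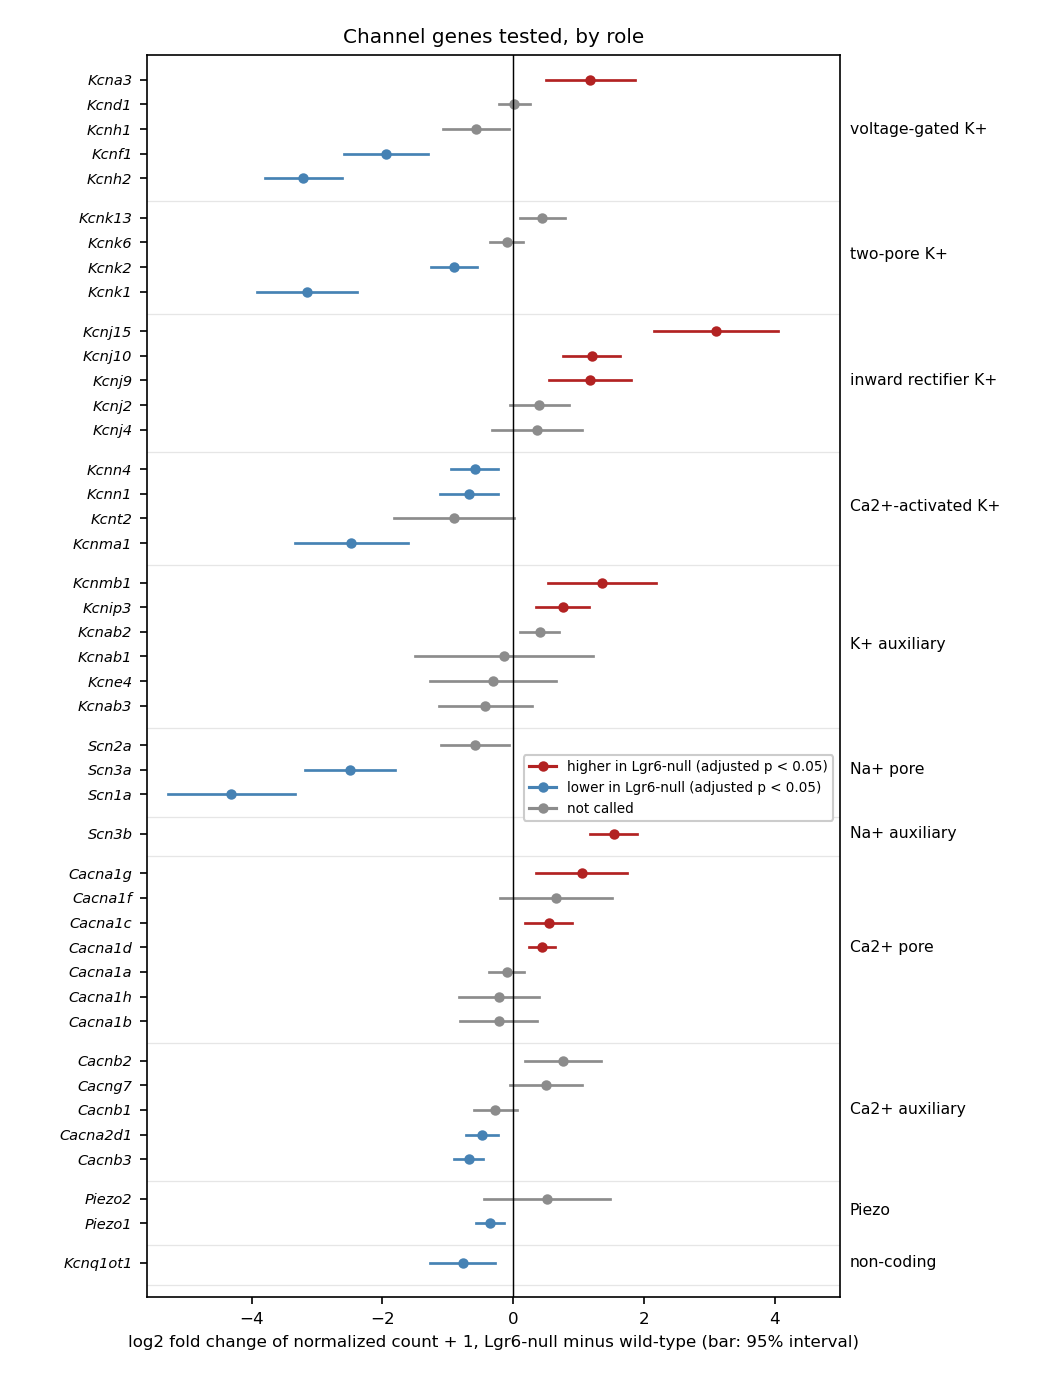
Log2 fold change of normalized count + 1, Lgr6-null minus wild-type (horizontal axis), for 43 of the 47 tested channel genes grouped by role (rows). Points are estimates from 4 against 4 libraries and bars are 95% intervals; Scn1a lies lowest at -4.31 and Kcnj15 highest at 3.10.

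Upstream sequences of the channel genes with the largest falls and rises are shown because the changes are in RNA level and these windows end at the starts of the genes. They are the 250 bases before the start, from RefSeq promoters of build GRCm38.p6, matched by symbol for 60 of the 78 members; the submitters' processing notes name GRCm39, so the positions are those of the sequence table only. Shown are the 3 largest falls and 2 largest rises among called members with a mean of at least 50 normalized counts and a single listed start. They are Scn1a (chr2:66440838-66441087 on the minus strand), Kcnh2 (chr5:24329592-24329841 on the minus strand), Kcnk1 (chr8:125994852-125995101 on the plus strand), Kcnj15 (chr16:95257308-95257557 on the plus strand) and Kcnj10 (chr1:172340960-172341209 on the plus strand). Capitals mark the GC box GGGCGG or its reverse complement CCGCCC.
Scn1a: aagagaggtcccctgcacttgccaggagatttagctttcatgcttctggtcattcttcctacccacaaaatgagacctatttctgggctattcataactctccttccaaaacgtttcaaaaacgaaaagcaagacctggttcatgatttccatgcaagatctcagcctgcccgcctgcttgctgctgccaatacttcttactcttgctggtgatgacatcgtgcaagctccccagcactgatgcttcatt
Kcnh2: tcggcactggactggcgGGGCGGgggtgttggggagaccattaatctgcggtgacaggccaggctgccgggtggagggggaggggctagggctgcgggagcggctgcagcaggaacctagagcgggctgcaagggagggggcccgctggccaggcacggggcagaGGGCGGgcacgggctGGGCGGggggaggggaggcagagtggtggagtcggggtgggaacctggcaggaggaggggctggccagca
Kcnk1: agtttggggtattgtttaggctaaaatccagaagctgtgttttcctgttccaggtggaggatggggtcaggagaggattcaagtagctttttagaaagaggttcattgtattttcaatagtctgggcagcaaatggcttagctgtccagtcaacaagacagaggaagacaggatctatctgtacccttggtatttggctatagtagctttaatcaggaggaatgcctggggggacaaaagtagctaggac
Kcnj15: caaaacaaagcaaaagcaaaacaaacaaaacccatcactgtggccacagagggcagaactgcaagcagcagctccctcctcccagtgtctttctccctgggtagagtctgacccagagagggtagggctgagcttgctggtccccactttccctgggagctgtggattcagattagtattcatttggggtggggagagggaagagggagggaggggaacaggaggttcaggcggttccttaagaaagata
Kcnj10: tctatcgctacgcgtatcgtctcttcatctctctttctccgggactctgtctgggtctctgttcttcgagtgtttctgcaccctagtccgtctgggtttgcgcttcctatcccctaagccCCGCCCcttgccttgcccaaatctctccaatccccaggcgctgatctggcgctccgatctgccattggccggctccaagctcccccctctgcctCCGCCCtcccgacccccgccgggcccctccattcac
The Kcnh2 window, of a gene that fell, held 3 GC boxes and 14 CG dinucleotides, and the Kcnj10 window, of a gene that rose, held 2 GC boxes and 17 CG dinucleotides. Those of Scn1a, Kcnk1 and Kcnj15 held no GC box and 4, 0 and 1 CG dinucleotides. None of the 5 held the RUNX core TGTGGT, the TCF/LEF core CTTTGA or the TATA box TATAAA on either strand. Over all listed starts, the GC box was found for 8 of 12 members that fell, 5 of 8 that rose and 35.4% of 27025 genes in the sequence table, but also for 23 of 34 tested members, called or not. In the same order (fell, rose, tested, all genes), the RUNX core was found for 2 of 12, 1 of 8, 6 of 34 and 15.9%, the TCF/LEF core for 1 of 12, 0 of 8, 3 of 34 and 15.8%, and the TATA box for 1 of 12, 2 of 8, 4 of 34 and 14.3%. A match says only that these letters stand in the window.

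Sodium channel pores fell in 2 of 3 tested genes, and Scn1a had the largest fall among the tested channel genes. Per kilobase of exon, their summed level was 6.88 to 11.5 normalized counts in Lgr6-null against 26.9 to 38.8 in wild-type libraries. Scn1a, a pore of fast sodium channels best known from inhibitory neurons, had 5.85, 10.9, 8.92 and 1.91 normalized counts in Lgr6-null, against 86.3, 199, 138 and 149 in wild-type libraries. Every Lgr6-null library lay below every wild-type library, and the mean in Lgr6-null was 4.82% of that in wild-type (log2 fold change -4.31 with SE 0.44, limma adjusted p = 0.000138). The Lgr6-null values rested on 33 reads in all, against 579 in wild-type. Scn3a, a sodium channel pore prominent in embryonic brain, had 11.7, 10.9, 17.8 and 17.2 in Lgr6-null and 89.0, 136, 80.1 and 50.6 in wild-type libraries, again without overlap (log2 fold change -2.49 with SE 0.31, limma adjusted p = 0.000421).

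Another sodium pore gene, Scn2a, lies in the same cluster on chromosome 2, 53.1 kb from Scn3a and 503 kb from Scn1a. Scn2a, a pore of excitatory neurons, had 61.0, 53.6, 29.7 and 64.9 in Lgr6-null and 72.3, 79.5, 76.7 and 74.7 in wild-type libraries and was not called (log2 fold change -0.59, 95% interval -1.11 to -0.06, limma adjusted p = 0.0961), although its libraries did not overlap; Lgr6-null library M3 was the lowest. With scaling to mesenchymal genes Scn2a was called (log2 fold change -0.75). Per kilobase, the scale on which genes can be compared, Scn1a averaged 0.618 ± 0.351 in Lgr6-null and 12.8 ± 4.15 in wild-type (SD, n = 4 each). Scn2a averaged 4.11 ± 1.24 in Lgr6-null and 5.95 ± 0.239 in wild-type. Scn1a was thus the highest sodium pore in wild-type and ranked 5 of 7 in Lgr6-null, where Scn2a ranked 1.

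Scn3b, an auxiliary β subunit of sodium channels, moved the other way. Scn3b had 60.1, 61.1, 64.7 and 55.4 normalized counts in Lgr6-null libraries, against 20.4, 18.9, 20.9 and 20.3 in wild-type libraries. The wild-type libraries lay close together and all Lgr6-null libraries above them, with a mean 3.00 times as high (log2 fold change 1.54 with SE 0.16, limma adjusted p = 0.000158). Its call held under the 20 alternatives in which it was tested.

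**Figure D3:**
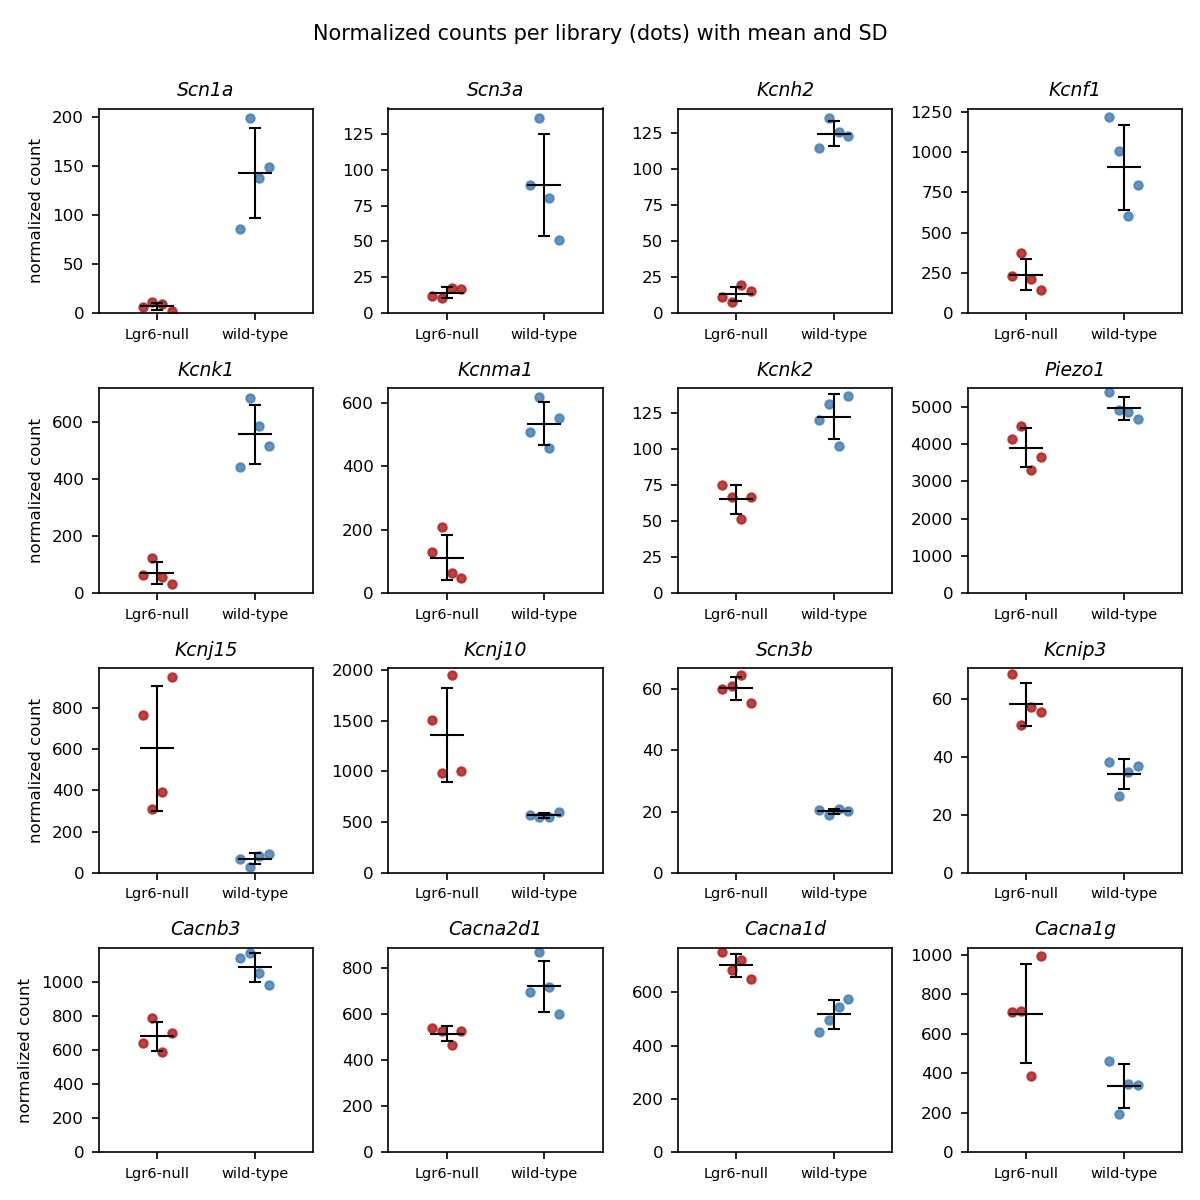
Normalized counts (vertical axes, from 0) of 16 channel genes in each of the 4 Lgr6-null and 4 wild-type libraries (dots), with the mean and SD of each genotype. In Cacna1g alone of these genes the genotypes overlap, with Lgr6-null library M3 at 385 among the wild-type values.

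Voltage-gated potassium channel pores fell in 5 of 8 tested genes and rose in 1. Kcnh2, the pore of a channel that repolarizes heart muscle, had 10.9, 7.54, 19.3 and 15.3 normalized counts in Lgr6-null, against 114, 135, 125 and 123 in wild-type libraries (log2 fold change -3.21 with SE 0.26, limma adjusted p = 4.16e-05). Every Lgr6-null library was several times lower than any wild-type library. Kcnf1 encodes a subunit that conducts no current by itself and modifies the channels that it joins. It had 230.5, 370.1, 215 and 143 in Lgr6-null, against 1215, 1004, 600.1 and 795 in wild-type libraries (log2 fold change -1.94 with SE 0.28, limma adjusted p = 0.00114), again without overlap.

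Kcna3, known from T cells and macrophages, was the 1 gene of this role that rose, with 56.8, 25.1, 29.7 and 53.5 in Lgr6-null, against 21.3, 13.3, 17.4 and 15.2 in wild-type libraries (log2 fold change 1.18 with SE 0.31, limma adjusted p = 0.0187). That call was lost without Lgr6-null library M0 (adjusted p = 0.0579) or wild-type library M1 (adjusted p = 0.0552). Of 4 T cell markers, 0 are analysed here, and the macrophage markers were higher as given above. Kcnd1 averaged 133 ± 12.7 in Lgr6-null and 130.4 ± 3.86 in wild-type (95% interval of the log2 fold change -0.22 to 0.26), and its sign turned with the scaling to mesenchymal genes (log2 fold change -0.15). Kcnh1 was at 21.0 to 30.1 in Lgr6-null against 35.7 to 58.4 in wild-type libraries without overlap or a call (limma adjusted p = 0.0909).

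Two-pore channels carry the background leak of potassium that sets the resting voltage, and 2 of 4 tested genes fell while 0 rose. Kcnk1, a weakly conducting leak channel, had 64.3, 122, 57.2 and 30.5 normalized counts in Lgr6-null libraries, against 443, 686, 587 and 516 in wild-type libraries. The mean in Lgr6-null was 12.3% of that in wild-type, without overlap (log2 fold change -3.15 with SE 0.34, limma adjusted p = 0.000209). Kcnk2, a leak channel opened by membrane stretch, had 75.2, 67.0, 51.3 and 66.8 in Lgr6-null, against 121, 132, 102 and 137 in wild-type libraries (log2 fold change -0.91 with SE 0.16, limma adjusted p = 0.00273). Here too the genotypes did not overlap, and Lgr6-null library M3 was the lowest. The Kcnk2 call was lost only with a replicate block by column number (limma adjusted p = 0.0512). In the GENCODE annotation, 12.2% of the exon bases of Kcnk2 are shared with A430027H14Rik, an antisense gene not analysed here, and the strand setting of the counting is not given in the sources used here.

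Kcnk6 and Kcnk13, both leak channels known from macrophages or microglia, were not called. Kcnk6 averaged 806 ± 106 in Lgr6-null and 864 ± 97.2 in wild-type (SD, n = 4 each; 95% interval of the log2 fold change -0.35 to 0.15). Kcnk13 averaged 544 ± 118 in Lgr6-null and 394 ± 50.1 in wild-type and was just short of a call (log2 fold change 0.45, limma adjusted p = 0.0567). It was called without Lgr6-null library M2 (adjusted p = 0.0414) or M4 (adjusted p = 0.0279) and with counts tested in edgeR (adjusted p = 0.0391).

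All 5 tested inward rectifiers, which pass potassium best near the resting voltage, had fold changes above 0, and 3 rose. Kcnj15 had 766, 308, 393 and 949 normalized counts in Lgr6-null, against 68.6, 29.4, 82.7 and 91.1 in wild-type libraries. Its Lgr6-null mean was 8.89 times the wild-type mean, the largest rise among the channel genes, and its Lgr6-null libraries differed among themselves, with M4 highest and M2 lowest (log2 fold change 3.10 with SE 0.42, limma adjusted p = 0.000778). Kcnj10, the channel by which glia take up potassium, had 1512, 980.5, 1952 and 1006 in Lgr6-null, against 573, 548, 549.6 and 603 in wild-type libraries (log2 fold change 1.20 with SE 0.20, limma adjusted p = 0.00198). Of 6 glia markers, 3 were tested and 0 called. Its neighbour Kcnj9, of the G protein-gated kind, lies 11.9 kb away on chromosome 1 and rose too, with 24.2, 31.0, 39.4 and 19.1 in Lgr6-null and 11.1, 15.1, 10.5 and 10.1 in wild-type libraries (log2 fold change 1.18 with SE 0.28). Kcnj2, the classical strong rectifier, averaged 732 ± 186 in Lgr6-null and 554 ± 143 in wild-type with overlapping libraries (95% interval of the log2 fold change -0.05 to 0.85). Kcnj4 was at 13.4 to 24.8 in Lgr6-null against 8.52 to 18.6 in wild-type libraries (95% interval -0.33 to 1.05).

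Potassium channels opened by calcium, grouped here with the sodium-opened Kcnt2, fell in 3 of 4 tested genes. Kcnma1, the pore of the large-conductance channel, had 128, 207, 63.9 and 47.7 normalized counts in Lgr6-null, against 508, 617, 459 and 553 in wild-type libraries (log2 fold change -2.47 with SE 0.39, limma adjusted p = 0.00156). The mean in Lgr6-null was 20.9% of that in wild-type, and library M2 was the highest of the Lgr6-null libraries. Kcnmb1, the auxiliary subunit of that channel in smooth muscle, had 15.9, 10.0, 16.4 and 26.7 in Lgr6-null, against 4.64, 7.57, 7.84 and 3.80 in wild-type libraries, from 67 reads in Lgr6-null and 25 in wild-type. These values are a description only, since the gene was tested through its Lgr6-null level alone and was under the filter whenever an Lgr6-null library was left out. Smooth muscle markers were higher for 3 of 6 genes in the same libraries, with a summed level of 16395 to 22576 against 5874 to 13164 normalized counts. Most of that sum was Acta2 (mean 18348 in Lgr6-null and 8860 in wild-type), and Tagln, Myocd and Des were not called. The part of smooth muscle cells was not tested.

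Kcnn4, the intermediate-conductance channel of blood cells, averaged 873 ± 214 in Lgr6-null and 1288 ± 150.4 in wild-type (SD, n = 4 each; log2 fold change -0.59 with SE 0.16, limma adjusted p = 0.0253). Kcnn1, a small-conductance channel, averaged 173 ± 42.8 in Lgr6-null and 275 ± 57.2 in wild-type (log2 fold change -0.68 with SE 0.20, limma adjusted p = 0.0318). Its genotypes overlapped. The Kcnn4 call was lost without Lgr6-null M0 or wild-type M0 or M2 (adjusted p = 0.0556 to 0.0652) and in limma without the variance trend (adjusted p = 0.0516). That of Kcnn1 was lost without Lgr6-null M0, M3 or M4 or wild-type M1 or M3 (adjusted p = 0.0613 to 0.0927), with libraries scaled to the same total (adjusted p = 0.0586) and without the trend (adjusted p = 0.0535). Kcnt2, a channel opened by sodium, was at 5.20 to 14.2 in Lgr6-null against 11.1 to 30.3 in wild-type libraries without a call (limma adjusted p = 0.139).

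Of the other 5 tested potassium auxiliary subunits, Kcnip3 rose and 0 fell. Kcnip3, a calcium-binding protein that joins fast inactivating potassium channels and can also act as a repressor of transcription, had 68.5, 51.1, 57.2 and 55.4 in Lgr6-null and 38.0, 26.5, 34.8 and 36.7 in wild-type libraries (log2 fold change 0.76 with SE 0.18, limma adjusted p = 0.013); scaling to mesenchymal genes ended the call (adjusted p = 0.0647). Kcnab2, a cytosolic β subunit, averaged 1533 ± 327 in Lgr6-null and 1139.5 ± 83.9 in wild-type (log2 fold change 0.41, limma adjusted p = 0.0524). It was called without Lgr6-null library M2 (adjusted p = 0.0412) or M4 (adjusted p = 0.0168), with same-total scaling (adjusted p = 0.00845) and with edgeR (adjusted p = 0.0356). Its relative Kcnab1 was at 22.3 to 87.7 in Lgr6-null against 17.7 to 138 in wild-type libraries, a spread in which neither direction could be told (95% interval -1.50 to 1.22).

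Set per kilobase of exon, the leading potassium pores differed between genotypes. In wild-type, Kcnn4 (252 ± 29.4, SD, n = 4), Kcnk1 (249.8 ± 46.4) and Kcnk6 (208 ± 23.4) were highest, and neighbours in this order did not differ beyond their spread. In Lgr6-null, Kcnj10 (252 ± 85.6), Kcnk6 (194 ± 25.5) and Kcnk13 (175 ± 37.9) were highest, and again neighbours did not differ beyond their spread. Kcnk1 made up 2.48% ± 1.57 of the summed level of 39 potassium pore genes in Lgr6-null and 16.5% ± 2.99 in wild-type, and stood at rank 9 in Lgr6-null and rank 2 in wild-type. Kcnj10 made up 19.7% ± 4.84 in Lgr6-null and 6.96% ± 0.458 in wild-type, and Kcnj15 moved to rank 6 in Lgr6-null, against rank 15 in wild-type. The summed level over the 39 genes was 1149 to 1390 in Lgr6-null against 1454 to 1565 in wild-type libraries. These genes include subunits that are silent by themselves, among them Kcnf1 with 4.03% of the sum in Lgr6-null and 12.4% in wild-type.

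**Figure D4:**
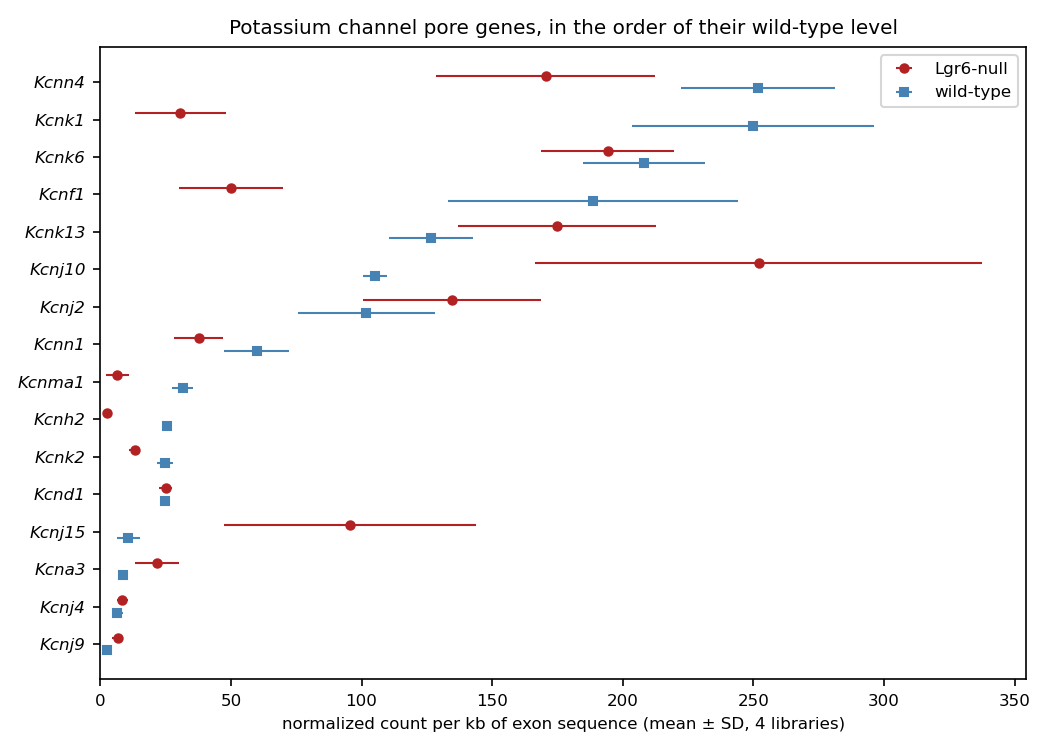
Normalized count per kilobase of exon sequence (horizontal axis, mean ± SD of 4 libraries) of potassium pore genes among the first 14 of either genotype, in the order of their wild-type level. Kcnk1 and Kcnf1 stand high in wild-type and low in Lgr6-null, and Kcnj10 and Kcnj15 the reverse.

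Calcium channel pores rose in 3 of 7 tested genes. Cacna1d, an L-type channel, had 752, 682, 720.3 and 649 normalized counts in Lgr6-null, against 449.8, 498, 545 and 576 in wild-type libraries (log2 fold change 0.44 with SE 0.09, limma adjusted p = 0.0059). All Lgr6-null libraries lay above all wild-type libraries, and the call was lost with scaling to mesenchymal genes (adjusted p = 0.0865). Cacna1c, the L-type channel of heart and smooth muscle, had 669, 672, 413 and 619 in Lgr6-null and 462, 333, 419.8 and 392 in wild-type libraries, with library M3 of Lgr6-null among the wild-type values (log2 fold change 0.54 with SE 0.16, limma adjusted p = 0.0352). Cacna1g, a T-type channel, which opens at small depolarizations, had 713, 714, 385 and 997 in Lgr6-null and 463, 192, 348 and 339 in wild-type libraries, and M3 was again the low Lgr6-null library (log2 fold change 1.05 with SE 0.31, limma adjusted p = 0.0332). Both calls were lost in 6 of the 8 fits that left out a library, the exceptions being those without Lgr6-null M3 or wild-type M0 (adjusted p = 0.0636 to 0.0986 for Cacna1c and 0.0618 to 0.0818 for Cacna1g). Limma without the trend ended both calls too (adjusted p = 0.0631 for Cacna1c and 0.0632 for Cacna1g), and scaling to mesenchymal genes that of Cacna1c (adjusted p = 0.102).

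Cacna1a, the pore of the P/Q type of nerve endings, was the highest calcium pore per kilobase in both genotypes, with 97.1 ± 10.2 in Lgr6-null against 104 ± 15.9 in wild-type (SD, n = 4 each). It was not called (95% interval of the log2 fold change -0.36 to 0.16). Its share of the summed level of 8 calcium pores was 38.1% ± 6.41 in Lgr6-null and 50.9% ± 4.59 in wild-type. The T-type relative Cacna1h was at 26.0 to 29.2 normalized counts in Lgr6-null against 23.5 to 55.9 in wild-type libraries without a call (95% interval -0.82 to 0.40).

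Some auxiliary subunits of calcium channels bring the pores to the cell surface, and 2 of 5 tested genes of this role fell. Cacnb3, an intracellular β subunit, had 642, 790.4, 587 and 701 normalized counts in Lgr6-null, against 1139, 1168, 1053 and 979.8 in wild-type libraries (log2 fold change -0.68 with SE 0.10, limma adjusted p = 0.00104). Cacna2d1, an extracellular subunit and the target of gabapentin, had 539, 527, 466 and 529 in Lgr6-null, against 698, 868, 716 and 601 in wild-type libraries (log2 fold change -0.47 with SE 0.11, limma adjusted p = 0.0102). In both genes the genotypes did not overlap and the calls held under all 21 alternatives. Cacnb1 averaged 121 ± 18.8 in Lgr6-null and 146 ± 18.4 in wild-type (95% interval of the log2 fold change -0.60 to 0.06). Cacng7 averaged 322 ± 25.1 in Lgr6-null and 241 ± 96.2 in wild-type (95% interval -0.05 to 1.06) and was called only without wild-type library M2 (log2 fold change 0.72, adjusted p = 0.0449).

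Piezo1, a large channel opened directly by membrane tension, had 4149, 4491, 3308 and 3662 normalized counts in Lgr6-null, against 5402, 4908, 4875 and 4689 in wild-type libraries. The genotypes did not overlap, and the mean in Lgr6-null was 78.5% of that in wild-type (log2 fold change -0.36 with SE 0.10, limma adjusted p = 0.023). The call was lost without Lgr6-null M4 or wild-type M0, M1 or M2 (adjusted p = 0.0506 to 0.0601) and with libraries scaled to the same total (adjusted p = 0.0998). Of its exon bases 24.6% are shared with Ctu2 on the opposite strand, a gene at a mean of 217 normalized counts with a log2 fold change of -0.01 (limma adjusted p = 0.969). Piezo2, the channel of touch, was at 38.5 to 114 in Lgr6-null against 20.4 to 77.2 in wild-type libraries without a call (95% interval of the log2 fold change -0.45 to 1.49).

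Kcnq1ot1, the long non-coding RNA of an imprinted domain, met the rule by its symbol and encodes no channel. It had 77.7, 116, 57.2 and 115 in Lgr6-null, against 175, 131, 146 and 153 in wild-type libraries (log2 fold change -0.77 with SE 0.22, limma adjusted p = 0.0301). The call was lost without Lgr6-null M0 or wild-type M0, M2 or M3 (adjusted p = 0.0632 to 0.0807) and with libraries scaled to the same total (adjusted p = 0.0622). The channel gene Kcnq1, to which it is antisense, is not analysed here. Exon bases shared with another annotated gene were found in 11 of the 27 called members, in 0 of them on the same strand, and in 4 with a gene that is itself analysed. Shared bases were also found in tested members not called, among them Cacna1a, Cacna1h, Cacnb1, Kcnab1, Kcnab2 and Kcnt2. If the counting did not use strand, reads of such partners cannot be told apart.

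The 31 members too low to test had means of 1.43 to 10.5 normalized counts and 12 to 90 reads over the 8 libraries. In 6 of them (19.4%) the genotypes did not overlap, beside 444 of all 5166 untested genes (8.59%), with 1 higher and 5 lower in Lgr6-null. Cacng5, a membrane subunit related to those that escort glutamate receptors, had 2 reads over the Lgr6-null libraries and 88 over the wild-type libraries, a wild-type to Lgr6-null ratio of 46.0 with an exact 95% binomial interval of 12.4 to 386 that covers counting error only. Kcnj3, a G protein-gated rectifier, had 1 and 24 reads in Lgr6-null and wild-type, a ratio of 25.1 in the same direction (4.09 to 1033). Kcnu1, a channel of sperm, averaged 3.02 ± 1.56 in Lgr6-null and 7.62 ± 1.18 in wild-type (SD, n = 4 each). Kcnrg, a suppressor of potassium channels, averaged 6.12 ± 3.04 in Lgr6-null and 14.4 ± 9.01 in wild-type. The leak channel gene Kcnk7 averaged 6.03 ± 3.01 in Lgr6-null and 8.11 ± 3.26 in wild-type, and the silent subunit Kcns1 11.0 ± 10.00 in Lgr6-null and 8.14 ± 2.80 in wild-type, so that neither stood clear of its spread. Cacna1e, a calcium pore of neurons, was the 1 that was higher without overlap, with 10 reads in Lgr6-null and 2 in wild-type, an Lgr6-null to wild-type ratio of 4.78 (1.02 to 44.9).

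Other genes that move the same ions were taken from a list of 86 TRP channels, store-operated and release channels, pumps, exchangers and ligand-gated channels. Of the 49 tested, 13 rose (26.5%) and 10 fell (20.4%), beside 13.0% and 12.7% of all tested genes, and the median of the 49 log2 fold changes was -0.01. The falls include Mcoln3, which passed the filter through wild-type libraries alone and had to differ, so that 9 remain without it. The genes named here were chosen after their values were seen. The sodium-calcium exchanger Slc8a3 fell to 51.5 to 187 normalized counts in Lgr6-null, against 785 to 1433 in wild-type libraries (log2 fold change -3.39 with SE 0.35, limma adjusted p = 0.000146). Its relative Slc8a1 rose, at 1233 to 1390.4 in Lgr6-null against 747 to 882 in wild-type libraries (log2 fold change 0.62 with SE 0.07). The acid-sensing channel Asic3 fell (log2 fold change -2.45 with SE 0.28), as did the polycystin Pkd2 (log2 fold change -0.87 with SE 0.11). Trpv4, a cation channel that responds to osmotic and mechanical stimuli, rose to 1051 to 1597 in Lgr6-null, against 692 to 798 in wild-type libraries (log2 fold change 0.82 with SE 0.12, limma adjusted p = 0.00114). Of 3 ATP-gated channels tested, P2rx4 (log2 fold change 0.50) and P2rx7 (log2 fold change 0.68), both known from macrophages, rose as well. The third, P2rx5, fell (log2 fold change -0.87, limma adjusted p = 0.0354). Macrophage markers were higher as given above, and their part was not tested.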

How the data were processed

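Polyadenylated RNA was sequenced as 100 bp paired ends from a stranded kit, per the labels. HISAT2 2.1.1, HTSeq 0.13.5, DESeq2 and GRCm39 are named in the submitters' processing notes; no source used here gives the gene annotation or the strand setting. The deposited signal is a normalized count per gene, and 100% of values were whole multiples of a step per library within 0.01 read, so reads were recovered. The lowest gene total was 11 reads. Columns carry a genotype and a number (M0 to M4) that the sample titles do not, so they were assigned to genotypes only. The lowest chi-square per degree of freedom between libraries of a genotype was 7.93, far above sampling noise. Symbols and exon lengths came from GENCODE M21 (GRCm38) by identifier, which matched 19361 and left 99.

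The genotypes were compared on log2(normalized count + 1) by limma 3.58.1 under R 4.3.3 with a trend of variance on mean, over every gene at 10 or more in 4 or more libraries. Named were Lgr6, Kcnk2, Piezo1, every called member, the 2 most abundant tested members not called in each role, and the untested member of each role with most reads. Members and lists were chosen with earlier results of these data known. Alternatives were pseudocounts of 0.5 and 5, other filters, scalings and variance models, edgeR 4.0.16 and DESeq2 1.42.0 on recovered reads, each library left out, and a block by column number. The results of some members are not reported here. Code was tested on simulated data.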

Additional observations from a re-analysis of the deposited data

Results flagged for a closer look

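Single libraries stood apart from the other 3 of their genotype in 5 of 76 sets of 4 normalized counts examined by Dixon's test, which flags about 5% by chance. Cacna2d1 was lowest in Lgr6-null library M3, at 466, and Piezo2 was highest in Lgr6-null library M0, at 113.6. Kcnh1 was lowest in Lgr6-null library M4, at 21.0. In wild-type library M0, Kcnh1 was highest, at 58.4, and Kcnk6 lowest, at 719.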

How the results depend on the processing

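Of the 27 channel genes called, 15 kept their call under every one of the alternatives in which they were tested (up to 21), 5 that rose and 10 that fell, and none of the 27 changed sign. With a mean of at least 50 normalized counts, which left 32 members to test, 6 rose and 15 fell, beside 14.9% and 13.6% of all genes. The count of members that rose was 7 with scaling to mesenchymal genes, which moves all fold changes down and leaves Kcnmb1 too low to test, beside 4.97% of all genes. With one library left out, 8 to 10 members rose and 12 to 16 fell, beside 9.06% to 12.7% and 9.13% to 12.5% of all genes, 26 to 31 did not overlap, beside 31.8% to 34.9% of all genes, and the log2 fold change of Lgr6 was -4.22 to -3.93. A replicate block by column number leaves Lgr6-null library M4 and wild-type library M1 without a partner, so they add nothing to its genotype contrast. With this block 5 rose and 10 fell, beside 6.56% and 7.14% of all genes. Same-numbered libraries did not deviate together (correlations of -0.12 to 0.03), but so few pairs cannot show whether the numbers pair the samples. No filter on low values gave 11 that rose and 20 that fell over 78 members, beside 9.44% and 9.54% of all genes. edgeR and DESeq2 each gave 14 and 16, beside 14% and 12.3% of all genes for edgeR and 14.8% and 13.9% for DESeq2. Limma without the variance trend gave 9 and 14, beside 11.2% and 11.6% of all genes, losing the calls of Kcnn1, Kcnn4, Cacna1c and Cacna1g. Among members not called, the log2 fold change of Cacna1h turned to 0.033 with the replicate block and ran from -0.36 to 0.043 with one library left out, turning without wild-type M1. That of Kcnab1 ran from -0.67 to 0.29, turning without Lgr6-null M3 or wild-type M0 or M2. That of Kcnd1 turned to -0.15 with scaling to mesenchymal genes, -0.014 with sample weights and -0.062 with the replicate block, and ran from -0.045, without Lgr6-null M4, to 0.056. The cause was not tested. With the replicate block, which rests on fewer libraries, 12 of the 27 calls were lost. Among them were those of Kcnk2, Piezo1, Kcna3, Kcnip3, Kcnn1, Kcnn4, Kcnq1ot1, Cacna1c, Cacna1d and Cacna1g. Pairing and the loss of libraries cannot be told apart in this fit. Depth limits the 31 untested members, at 12 to 90 reads each.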
